A study of Mus musculus with 28 samples.

Results

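The right ventricle (RV) was compared with the left ventricle (LV) in control hearts, over the 6 libraries of the 3 WT animals from which both ventricles were sequenced. They were taken by their labels, as animals 636, 637 and 647, from 28 libraries of 16 mice. All 3 were Pkp2 fl/fl mice of the C57BL6 strain without Cre, littermates of the mutants, and received tamoxifen and a single injection of HBSS, the vehicle. They therefore carried floxed Pkp2 alleles and had been exposed to tamoxifen, but could not delete the gene. The other 9 animals with both ventricles all carried the floxed alleles and a tamoxifen-inducible Cre driven by the alpha-myosin heavy chain promoter, which acts in cardiomyocytes. Of these, 4 received HBSS (cKO), 2 received TN-401, an AAV9 vector with human PKP2, at 3E13 vg/kg and 3 received it at 6E13 vg/kg, 1 week before tamoxifen. The collection time of the cKO animals given HBSS is not stated apart from the others in the sources used here, and the ages of single animals were not used here. Another 2 WT animals, 248 and 626, gave LV only and entered only where this is said.

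The ventricles work against different loads. The LV pumps into the systemic circulation at high pressure and has a thick wall, while the RV pumps into the lung circulation at low pressure and has a thin one. The LV arises mainly from the first heart field of the embryo, and the RV and outflow tract from the second heart field. Cardiomyocytes under greater stretch make more of a set of stress and fetal genes, among them the natriuretic peptides, skeletal alpha-actin and the ankyrin repeat proteins of the sarcomere. The adult ventricles also differ in the ion channels that shape the action potential.

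Library totals of the 6 libraries ran from 23773528 to 39381176 estimated reads, so a count of 3, the floor used here, is worth 0.0762 to 0.126 CPM (counts scaled to a common library size). Such a floor covers counting error alone, because the reads carry no molecular identifiers and PCR copies cannot be told from separate molecules. Mouse Pkp2 was present in every WT library at 85.3 to 112 CPM, and the human transgene had 0 counts in all 8. Ventricular markers were high in both chambers, with Myh6 at a mean of 13756 CPM in LV and 12838 in RV. Of the atrial muscle list, 3 markers were close to 0. There was no count of Sln in any library, Myl7 was at 0 in 5 of the 6 libraries and at 13 counts in RV of animal 636, and Myl4 had at most 26 counts. Other members of that list were not, among them Nppa, Kcnj3 and Pam. The 11 members tested summed to 532 to 632 CPM in LV and 471 to 553 in RV. Over 9277 genes of at least 5 CPM, the median absolute log2 difference between the ventricles of an animal was 0.195, 0.144 and 0.195 for 636, 637 and 647. Between different animals it was 0.124 to 0.148 in LV and 0.181 to 0.244 in RV, so the step from one chamber to the other was of about the size of the step between animals.

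Promoters are shown first for 4 genes that stood lower in RV in all 3 animals and whose promoters hold 1 of the 2 motifs searched, so that the motifs can be read in place. M-CAT (CATTCC, or GGAATG on the other strand) is the element bound by TEAD factors, and the CArG box is the element bound by serum response factor (SRF). Each line gives the 250 bases before the RefSeq start on the gene's own strand, build GRCm38.p6, with M-CAT in capitals for Nppb, Acta1 and Ankrd1 and the CArG boxes in capitals for Srf.
Nppb, chr4:147985650-147985899, plus strand: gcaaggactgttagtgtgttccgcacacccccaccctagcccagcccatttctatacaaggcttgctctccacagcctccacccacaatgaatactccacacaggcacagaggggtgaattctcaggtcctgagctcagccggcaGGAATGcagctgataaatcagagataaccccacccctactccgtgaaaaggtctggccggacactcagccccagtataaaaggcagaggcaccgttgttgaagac
Acta1, chr8:123894776-123895025, minus strand: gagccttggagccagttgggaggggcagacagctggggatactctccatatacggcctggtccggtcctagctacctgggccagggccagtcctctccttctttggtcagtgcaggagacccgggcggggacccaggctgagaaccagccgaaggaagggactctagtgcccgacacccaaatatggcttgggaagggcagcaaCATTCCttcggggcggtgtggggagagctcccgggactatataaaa
Ankrd1, chr19:36119845-36120094, minus strand: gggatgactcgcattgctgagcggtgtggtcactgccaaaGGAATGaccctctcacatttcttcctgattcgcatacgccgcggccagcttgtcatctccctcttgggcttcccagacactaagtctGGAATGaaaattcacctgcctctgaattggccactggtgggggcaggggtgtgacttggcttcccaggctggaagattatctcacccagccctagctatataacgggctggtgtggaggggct
Srf, chr17:46556163-46556412, minus strand: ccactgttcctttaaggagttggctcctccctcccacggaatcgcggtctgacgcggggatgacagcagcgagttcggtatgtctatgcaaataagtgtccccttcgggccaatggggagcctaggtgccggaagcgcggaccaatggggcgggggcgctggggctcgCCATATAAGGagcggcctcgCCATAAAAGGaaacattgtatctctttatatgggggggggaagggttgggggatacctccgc
Acta1 also held 1 CArG box, left in lower case, and in none of the 4 did the motifs overlap. M-CAT was present in 12.6% of 32851 promoters of this length and the CArG box in 1.47%, on both strands. Of the 19 tested genes of the wall stress and fetal programme, described below, 15 matched the promoter table with 19 starts, and 8 of those starts held M-CAT. A match is a description of the letters and not a site of binding.

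Whether the chambers differed at the level of single genes was tested within animals. No gene of 15556 tested passed an adjusted p of 0.05 by edgeR, which is 0% of those tested, while 1269 had an unadjusted p under 0.05, with 769 lower (4.94%) and 500 higher (3.21%) in RV. In the 3 pairs, 7.24% of all genes were lower in RV and 6.24% higher with no overlap between the chambers. The same genes gave 144 calls by DESeq2, of which 104 (0.669%) were lower and 40 (0.257%) higher in RV, and 4 by limma voom, all lower. Nothing below has passed the edgeR test unless this is said, and counts of list members at an unadjusted p under 0.05 are to be read against the 4.94% of all genes that were lower and the 3.21% that were higher. All lists were chosen with earlier results of these data known, so such counts describe the lists and are no independent test. Fold changes are log2 of RV over LV with their standard error (SE) from the fit of 3 pairs, and a gene is described by its level in each animal. The spread behind each p-value comes in part from these 3 animals, with 2 residual degrees of freedom. The rest is borrowed from the trend over all genes, with 4.39 prior degrees of freedom. With 3 animals the p-values say little of the spread among other animals.

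Nppb (chr4:148069859-148071662, GRCm39), which codes for the B-type natriuretic peptide that stretched ventricular muscle releases, was lower in RV in every animal. In LV it was at 123, 84.5 and 60.8 CPM in animals 636, 637 and 647, and in RV at 52.1, 24.5 and 24.6 CPM. Each RV was below every LV of the 3 animals, at a log2 fold change of -1.44 (SE 0.13, edgeR adjusted p = 0.0740). The 2 WT hearts with LV only were at 58.7 CPM (248) and 34.0 CPM (626), so over 5 LV libraries the chambers overlapped.

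Acta1, skeletal alpha-actin, was at 189, 100.3 and 43.2 CPM in LV and at 106, 31.1 and 10.3 CPM in RV. It was lower in RV within each animal, with a log2 fold change of -1.51 (SE 0.22, edgeR adjusted p = 0.234). The LV levels of the 3 animals spanned a wider range than the chambers of any 1 animal, and LV of 626, at 12.9 CPM, was close to the lowest RV. Ankrd1, the cardiac ankyrin repeat protein that binds titin in the sarcomere and also enters the nucleus, was at 269, 271 and 173 CPM in LV and at 152, 104 and 114 CPM in RV. Its log2 fold change was -0.94 (SE 0.16, edgeR adjusted p = 0.294), and LV of 248 and 626 were at 123 and 100.1 CPM, among or below the RV values. Ankrd23, a relative of Ankrd1 that also binds titin, was at 280, 232 and 149 CPM in LV and at 163, 121 and 79.5 CPM in RV. Every animal had it lower in RV, at -0.87 (SE 0.09, edgeR adjusted p = 0.0973), but LV of 248 and 626 were at 155 and 144 CPM, below the RV of 636.

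**Figure D1:**
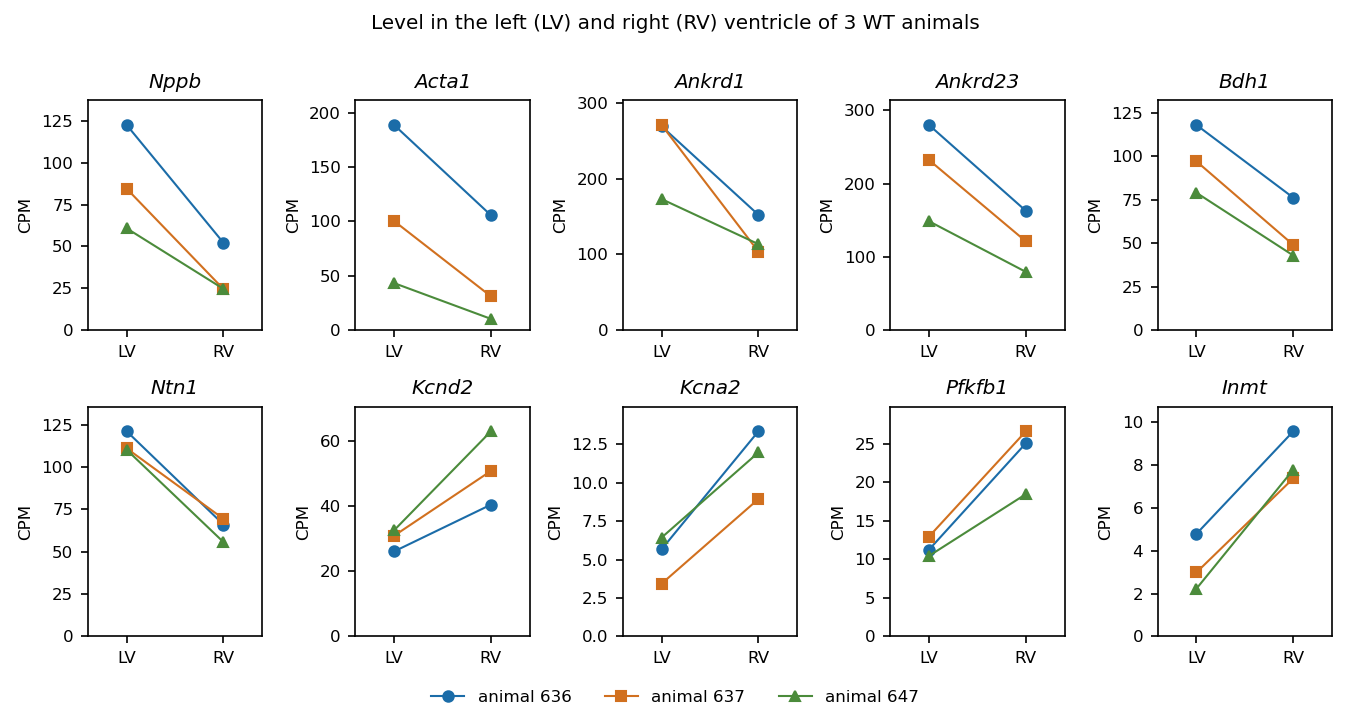
Level in CPM (vertical axes, from 0) of 10 genes in LV and RV of the 3 WT animals, with a line joining the chambers of an animal. The lines of Nppb, Acta1, Ankrd1, Ankrd23, Bdh1 and Ntn1 go down from LV to RV in all 3 animals, and those of Kcnd2, Kcna2, Pfkfb1 and Inmt go up in all 3.

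These genes belong to a list of 20 genes of wall stress and the fetal programme, of which 19 were tested. In this list 12 had an unadjusted p under 0.05 and were lower in RV, against 4.94% of all genes tested, and 1 was higher, against 3.21%. The list's members were chosen with earlier results of these data known, so these shares describe the list and are no independent test. The median log2 fold change was -0.42 beside 0.01 over all genes. Lower members included Xirp2, which codes for a protein of the intercalated disc, at a mean of 1425 CPM in LV and 969 in RV (log2 fold change -0.57, SE 0.10). Flnc, filamin C at the Z-disc, was at 497 and 345 CPM (-0.54, SE 0.10), and Mybpc2, fast myosin binding protein C, at 12.2 and 6.29 CPM (-0.98, SE 0.20). The 1 higher member was Corin, the protease that activates the natriuretic peptides, at 189 and 238 CPM (0.32, SE 0.09), singled out after its value was seen. Leaving out animal 636, 637 or 647 left 10, 10 and 12 lower members with an unadjusted p under 0.05, and 4, 1 and 1 higher ones. The same fits had 704, 495 and 825 lower and 561, 295 and 658 higher genes of all kinds. Over 5 LV and 3 RV libraries 2 of the 19 did not overlap and were lower in RV, against 3.66% of all genes, where the 3 pairs alone had 8, against 7.24%.

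Of 35 sarcomere genes tested, 10 had an unadjusted p under 0.05 and were lower in RV, against 4.94% of all genes, and 0 were higher, against 3.21%. The list median was -0.13, with -0.30, -0.09 and 0.02 in animals 636, 637 and 647, so the list as a whole was not lower in 647. Myot, myotilin of the Z-disc, was at 62.4, 44.3 and 24.9 CPM in LV and at 38.7, 28.7 and 15.5 CPM in RV, and it differed by nearly the same factor in each animal (-0.66, SE 0.09, edgeR adjusted p = 0.177). LV of 248 and 626 were at 23.8 and 24.2 CPM, within the RV range. Mybpc3, cardiac myosin binding protein C, was at 2377, 2027 and 1890.1 CPM in LV and at 1731, 1569 and 1419 CPM in RV, with no overlap in these 3 animals (-0.41, SE 0.10). LV of 248 and 626 were at 1732 and 1578 CPM, the latter below the RV of 636. Synpo2l, a Z-disc partner of actin, was lower at -0.43 (SE 0.10). Nrap, an actin anchor counted here with the intercalated disc, was at a mean of 701 CPM in LV and 525 in RV (-0.41, SE 0.09). Myh7, the slow myosin heavy chain of the fetal ventricle, was at 315, 177 and 236 CPM in LV and at 213, 161 and 153 CPM in RV, and the chambers overlapped. Without animal 637 the list had 5 lower members in place of 10, while the lower genes of all kinds were 495 in place of 769.

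**Figure D2:**
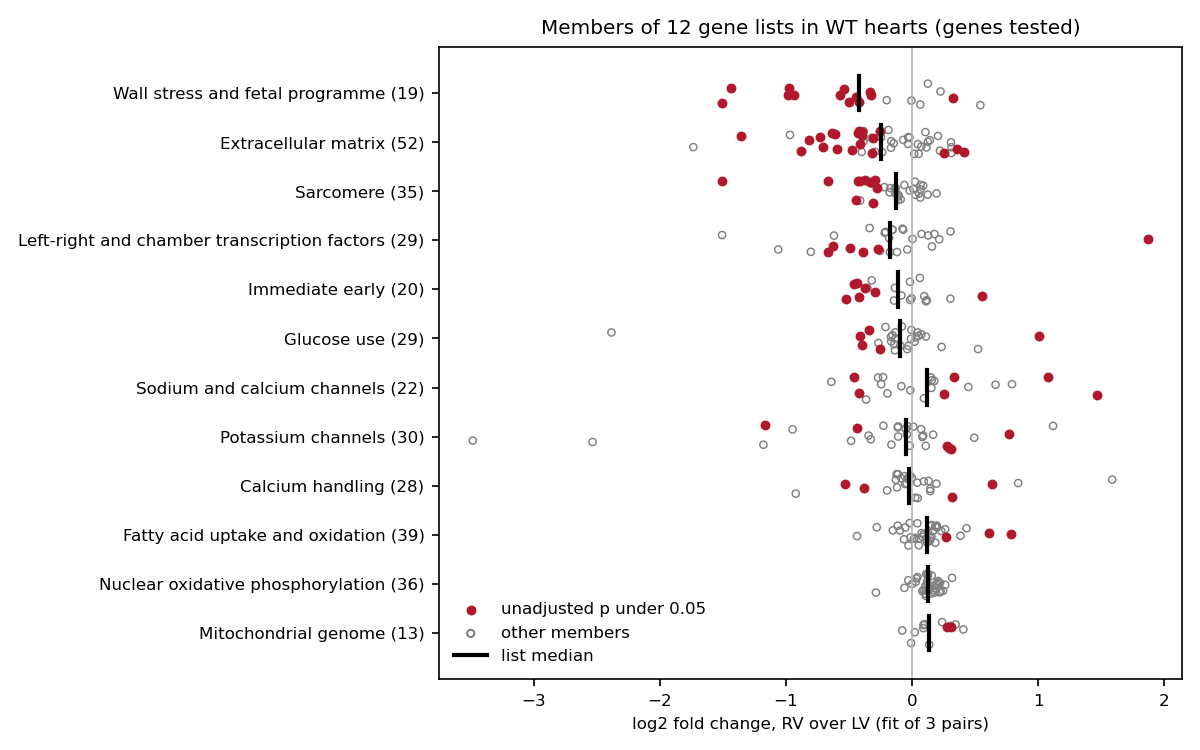
Log2 fold change of RV over LV (horizontal axis) of each tested member of 12 gene lists, with members at an unadjusted p under 0.05 filled and the list median as a bar. The medians of wall stress (-0.42) and extracellular matrix (-0.25) lie farthest below 0, and those of fatty acid oxidation (0.12) and oxidative phosphorylation (0.13) lie above it.

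Chamber transcription factors were compared next. Of 29 tested, 5 were lower in RV and 1 was higher at an unadjusted p under 0.05, against 4.94% and 3.21% of all genes. Srf, whose promoter is printed above and whose protein drives muscle genes through the CArG box, was at 56.1, 57.7 and 49.2 CPM in LV and at 33.1, 43.5 and 30.1 CPM in RV (-0.63, SE 0.10, edgeR adjusted p = 0.291). The 5 LV libraries, with 50.05 and 54.9 CPM in animals 626 and 248, all stood above the 3 RV libraries. Irx4, a ventricular homeobox factor, was at 24.6, 25.8 and 23.6 CPM in LV and at 15.6, 22.3 and 19.3 CPM in RV (-0.39, SE 0.12). Hand2, a factor required for the RV of the mouse embryo, was at 29.7, 37.9 and 25.9 CPM in LV and at 23.1, 33.1 and 21.7 CPM in RV, lower in RV in each adult animal (-0.27, SE 0.09). Tbx5, which marks the LV in the embryo, was at 27.1, 30.3 and 27.6 CPM in LV and at 20.6, 28.2 and 27.1 CPM in RV, and the chambers overlapped (-0.18, SE 0.11, edgeR adjusted p = 0.732). Gata4 was at -0.15 (SE 0.09) and Tbx20 at -0.07 (SE 0.11), both broad cardiac factors.

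Among potassium channels, Kcnd2, a pore subunit of the fast transient outward current, was at 26.1, 30.9 and 32.5 CPM in LV and at 40.4, 50.7 and 62.9 CPM in RV. The chambers of these 3 animals did not overlap (0.77, SE 0.10, edgeR adjusted p = 0.177), but LV of 626 and 248 were at 47.4 and 42.5 CPM, above the RV of 636. Kcna2 (chr3:107008237-107022321, GRCm39), a delayed rectifier of neurons and heart, was at 5.67, 3.43 and 6.43 CPM in LV and at 13.3, 8.93 and 11.96 CPM in RV (1.17, SE 0.16, edgeR adjusted p = 0.214). All 5 LV libraries were below 8.93 CPM. Kcnk3, a background potassium channel, was at 224, 214 and 202 CPM in LV and at 149, 174 and 150.5 CPM in RV (-0.44, SE 0.10). Of 30 potassium channel genes tested, 4 were higher in RV at an unadjusted p under 0.05, against 3.21% of all genes, and 2 lower, against 4.94%, the latter a share near that of all genes.

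Among sodium, calcium and pacemaker channels, 4 of 22 tested were higher and 2 lower at an unadjusted p under 0.05, against 3.21% and 4.94% of all genes. Hcn2, a pacemaker channel of the ventricle, was at a mean of 15.6 CPM in LV and 11.4 in RV (-0.46, SE 0.12). Of 14 conduction system markers tested, 2 were higher and 2 lower at an unadjusted p under 0.05, against 3.21% and 4.94% of all genes. Their median was 0.02, 0.47 and -0.28 in animals 636, 637 and 647. Single members differed in 637. Cntn2, an adhesion protein of Purkinje fibres, had 34 counts in LV and 530 in RV of 637, against 202 and 146 in 636 and 275 and 229 in 647. In 637 Hcn2 went the other way, with 413 counts in LV and 331 in RV, as did Tbx3, with 530 and 467. The part of such tissue in the values of the channel genes was not tested.

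Of 28 calcium handling genes, 2 were lower and 2 higher at an unadjusted p under 0.05, shares near the 4.94% and 3.21% of all genes. Jph2, junctophilin 2 of the dyad, was at 330.2, 315 and 299 CPM in LV and at 228, 257 and 175 CPM in RV, lower in every animal and without overlap (-0.53, SE 0.11, edgeR adjusted p = 0.365). Slc8a1, the sodium-calcium exchanger, was at a mean of 161 CPM in LV and 124 in RV (-0.38, SE 0.14). Pln, phospholamban, the brake on the calcium pump of the sarcoplasmic reticulum, was at 1792, 1921 and 2395 CPM in LV and at 2213, 2397 and 3026 CPM in RV (0.32, SE 0.10, edgeR adjusted p = 0.529). In adrenergic signalling, Rgs2, which limits Gq signals, was at 13.4, 14.2 and 17.5 CPM in LV and at 17.1, 30.2 and 29.3 CPM in RV (0.73, SE 0.16), and Adra1b, an alpha adrenergic receptor, was at a mean of 16.3 and 22.4 CPM (0.44, SE 0.12). Each was higher in RV in all 3 animals. Of 29 tested members of that list, 2 were higher and 4 lower at an unadjusted p under 0.05, against 3.21% and 4.94% of all genes.

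Among genes of fuel use, Bdh1 (chr16:31241087-31277725, GRCm39), the mitochondrial dehydrogenase that oxidises the ketone body hydroxybutyrate, was at 118, 97.0 and 78.9 CPM in LV and at 76.1, 49.0 and 42.9 CPM in RV, with no overlap (-0.83, SE 0.10, edgeR adjusted p = 0.160). Pfkfb1, a bifunctional enzyme that sets the level of an allosteric activator of glycolysis, was at 11.3, 12.96 and 10.5 CPM in LV and at 25.1, 26.6 and 18.5 CPM in RV (1.01, SE 0.12, edgeR adjusted p = 0.160). All 5 LV libraries, up to 17.1 CPM in 248, were below the 3 RV libraries. Other glucose genes with an unadjusted p under 0.05 were lower in RV, 4 of 29 tested, against 4.94% of all genes, and the list median was -0.22, -0.10 and 0.10 in animals 636, 637 and 647. Among them were Hk1, a hexokinase, at a mean of 153 CPM in LV and 115 in RV (-0.42, SE 0.12), and Pfkfb2, the heart form of the enzyme above, at 91.9 and 72.5 CPM (-0.34, SE 0.10).

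Genes of fatty acid uptake and oxidation were higher in RV in all 3 animals for 16 of 39 tested, against 15.3% of all genes, and lower in all 3 for 0, against 15.6%. At an unadjusted p under 0.05 there were 3, all higher, against 3.21% of all genes, and the median was 0.12, with -0.01, 0.09 and 0.21 in animals 636, 637 and 647. Ucp3, an uncoupling protein of the inner mitochondrial membrane, was at 12.8, 39.7 and 11.4 CPM in LV and at 24.6, 65.8 and 12.4 CPM in RV (0.61, SE 0.16). Cpt1a, a carnitine palmitoyltransferase at the entry of fatty acids into mitochondria, was at a mean of 45.8 and 56.1 CPM (0.27, SE 0.11). Of 36 nuclear genes of oxidative phosphorylation, 33 had a log2 fold change above 0, against 8067 of the 15556 genes tested. At an unadjusted p under 0.05, 0 of the 36 were higher and 0 lower, against 3.21% and 4.94% of all genes. The median difference of these 36 genes was -0.05, 0.03 and 0.45 in animals 636, 637 and 647, so the list's median of 0.13 rested on 647. With the trend of each library with transcript length removed, an alternative added after the data were seen, it was 0.06. Genes of the mitochondrial genome took 33.7%, 36.4% and 36.6% of reads in LV and 39.6%, 39.2% and 35.7% in RV, higher in RV in 2 of 3 animals. The mean difference was 2.64 percentage points ± 3.42 (SD, n = 3), with a two-sided exact permutation p of 0.50, where 3 pairs allow no p under 0.25.

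Extracellular matrix genes leaned lower in RV. Of 52 tested, 17 had an unadjusted p under 0.05 and were lower, against 4.94% of all genes, 3 were higher, against 3.21%, and the median was -0.25. This list too was chosen with earlier results of these data known, so the shares are no independent test. Col4a2, a chain of basement membrane collagen, was at 283, 276 and 212 CPM in LV and at 197, 189 and 98.1 CPM in RV (-0.73, SE 0.14, edgeR adjusted p = 0.336), and its partner Col4a1 was at -0.71 (SE 0.15). Col1a1, a chain of fibrillar collagen I, was at 75.6, 62.8 and 66.7 CPM in LV and at 50.5, 50.4 and 35.9 CPM in RV (-0.60, SE 0.12). Col6a3 (chr1:90693645-90771780, GRCm39), a chain of the microfibrillar collagen VI, was at 63.4, 57.7 and 68.4 CPM in LV and at 47.1, 38.6 and 51.5 CPM in RV (-0.47, SE 0.09). In these 3 animals neither Col4a2, Col1a1 nor Col6a3 overlapped between chambers, and over 5 LV libraries Col6a3 still did not. The 3 higher members were Ogn, a small proteoglycan (0.42, SE 0.09), Fbln1, fibulin 1 (0.36, SE 0.13), and Timp3, an inhibitor of metalloproteinases (0.25, SE 0.10).

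Fibroblast markers went in both directions. Of 16 fibroblast markers tested, 3 were higher and 3 lower at an unadjusted p under 0.05, against 3.21% and 4.94% of all genes. Their median was 0.13, and their summed level was 1074 to 1327 CPM in LV and 1211 to 1372 in RV. Pdgfra, a receptor that marks resting fibroblasts, was at 47.4, 36.4 and 42.6 CPM in LV and at 50.2, 44.8 and 52.6 CPM in RV, and Dpt, dermatopontin, was at 0.30 (SE 0.10). In bulk tissue, fewer cells of a type cannot be told apart from less RNA per cell. Macrophage markers summed to 194 to 217 CPM in LV and 217 to 254 in RV. At an unadjusted p under 0.05, 2 of 17 were higher and 0 lower, against 3.21% and 4.94% of all genes. The 2 were Cd163 at 0.50 (SE 0.14) and Mrc1 at 0.32 (SE 0.11), both of resident macrophages. Endothelial markers had 1 of 18 higher at the same threshold, the water channel Aqp1 (0.32, SE 0.10), and 0 lower, a share near that of all genes. Vwf, von Willebrand factor, which is rich in endocardium and veins, was at 54.7, 50.01 and 64.5 CPM in LV and at 58.3, 85.8 and 97.8 CPM in RV (0.49, SE 0.14). It was counted with 12 tested markers of endocardium and valves. Of these, 2 were higher and 1 lower at an unadjusted p under 0.05, against 3.21% and 4.94% of all genes. The median of that list was -0.32, 0.65 and 0.44 in animals 636, 637 and 647, so 636 went the other way. The 7 tested markers of Schwann cells and neurons summed to 15.2 to 18.7 CPM in LV and 22.2 to 24.3 in RV, with Kcna1 at 0.76 (SE 0.19) and Mbp, myelin basic protein, at 0.79 (SE 0.25). Their part in the level of Kcna2, which neurons also use, was not tested. The 6 tested markers of epicardium and mesothelium summed to 17.3 to 21.5 CPM in LV and 19.7 to 24.8 in RV. At an unadjusted p under 0.05, 3 were higher and 0 lower, against 3.21% and 4.94% of all genes. The list median was 0.61, or 0.09 on log2(TPM + 1). Of the 6, Upk3b had 3, 7 and 5 counts in LV and 6, 14 and 18 in RV of animals 636, 637 and 647. Lrrn4 had 1, 5 and 1 in LV and 10, 11 and 11 in RV, so both were close to the floor of 3 counts. Wt1, a factor that defines the epicardium, stood the other way, at -0.56 (SE 0.24).

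Among secreted regulators of Wnt signalling, Wif1, which binds Wnt proteins, was at 1.82, 1.95 and 2.71 CPM in LV and at 3.40, 5.50 and 6.66 CPM in RV (1.23, SE 0.22, edgeR adjusted p = 0.306), and Sfrp1 at a mean of 12.2 and 16.5 CPM (0.44, SE 0.13). Each RV stood above the 3 LV libraries of these animals, and for Wif1 above all 5, while Sfrp1 was at 15.8 CPM in LV of 248. Of 28 genes of retinoic acid, Wnt, BMP and Notch signals, 3 were higher and 0 lower at an unadjusted p under 0.05, against 3.21% and 4.94% of all genes. Immediate early genes had 6 of 20 lower, against 4.94% of all genes, and 1 higher, against 3.21%, and the list median was -0.26, 0.09 and -0.27 in animals 636, 637 and 647, so that 637 stood apart. Jund was at a mean of 37.4 CPM in LV and 27.96 in RV (-0.44, SE 0.13), Klf2, a flow-responsive factor of endothelium, was at 34.0 and 26.5 CPM (-0.37, SE 0.10), and Fos at 2.96 and 4.26 CPM (0.55, SE 0.20). Desmosome and intercalated disc genes, the family to which Pkp2 belongs, had a median of 0.02. At an unadjusted p under 0.05, 2 of 24 were lower and 2 higher, against 4.94% and 3.21% of all genes.

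Other genes with the smallest p-values had less known roles in the heart. Ntn1, the guidance cue netrin 1, was at 121, 111 and 110.2 CPM in LV and at 66.1, 69.4 and 55.7 CPM in RV (-0.85, SE 0.09, edgeR adjusted p = 0.132), and all 5 LV libraries stood above the RV. Atf5 (chr7:44461680-44466082, GRCm39), a factor of the mitochondrial stress response, was at 39.9, 32.5 and 29.97 CPM in LV and at 23.9, 21.1 and 17.2 CPM in RV (-0.72, SE 0.10, edgeR adjusted p = 0.187). In the paired fit of all 24 libraries, which shares 1 estimate of the spread among groups, Atf5 was the 1 gene that passed in WT, at -0.72 (edgeR adjusted p = 0.0325). Cpxm2, a carboxypeptidase-like secreted protein, was at -0.94 (SE 0.10, edgeR adjusted p = 0.122). Inmt, a methyltransferase of indole amines, was at 4.79, 2.99 and 2.23 CPM in LV and at 9.58, 7.38 and 7.79 CPM in RV (1.36, SE 0.21), and Prkcq, protein kinase C theta, at 0.88 (SE 0.14). Asb14 was at 22.5, 5.18 and 9.27 CPM in LV and at 41.5, 12.4 and 31.3 CPM in RV (1.29, SE 0.18), but LV of 248 was at 46.1 CPM, above every RV.

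Several of the named genes rest on uncertain quantification or were split among the animals of the other groups. Atpaf2, an assembly factor of the mitochondrial ATP synthase, had the smallest p of all genes and was at 13.4, 16.4 and 14.04 CPM in LV and at 0.202, 0.923 and 0.663 CPM in RV (-4.67, SE 0.34, edgeR adjusted p = 0.0621). The effective length that the quantification gave it moved with the level, at 1546, 1660 and 1370 bases in the 3 LV and 392, 612 and 546 bases in the 3 RV libraries. LV of 248 was at 1.34 CPM with 814 bases, and the other 9 animals had it higher in RV in 4 and lower in 5. Neb, nebulin of the skeletal sarcomere (-1.28), Fmnl1, a formin (1.48), the pseudogene Gm7336 (1.90) and Gm20721 (-0.89), for which the annotation used here gave no position, were likewise split among those 9 animals. For Neb they were 4 higher and 5 lower, for Fmnl1 3 and 6, for Gm7336 4 and 5 and for Gm20721 2 and 7. A split alone does not show a fault of quantification. Genes described above were split too, Pfkfb1 with 5 higher and 4 lower, Atf5 with 4 and 5 and Nppb with 3 and 6. Gm20721 kept an effective length of 1044 to 1131 bases over the WT libraries, but had 0 counts in RV of 180 and 181 and in LV of 645. The small nucleolar RNAs Gm24119 (1.25) and Gm23262 (1.502) were among the 10 named higher genes. Of 22 such RNAs with at least 1 CPM, 18 were higher in RV in all 3 animals, against 15.3% of all genes, and 0 lower, with a median of 0.83.

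Transcript length moved with the difference in 1 animal. Across 8403 coding genes of at least 5 CPM, which are not independent replicates, Spearman's rho of the RV minus LV difference with length was -0.43 in animal 647, -0.03 in 637 and 0.08 in 636. In 647 the median log2 difference ran from 0.25 in the shortest of 5 equal bins of genes, up to 1494 bases, to -0.13 in the longest, from 4619 bases. The part of length in the differences of single genes was not tested beyond the fit below. With the length trend of each library removed, wall stress had 13 lower members at an unadjusted p under 0.05 in place of 12, extracellular matrix 17 in place of 17, sarcomere 10 in place of 10, and no gene passed in either fit. The lower genes of all kinds were 798 in place of 769. Of the 19 wall stress genes 13 were lower in RV in all 3 animals, against 15.6% of all genes, with list medians of -0.56, -0.29 and -0.37 in 636, 637 and 647.

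**Figure D3:**
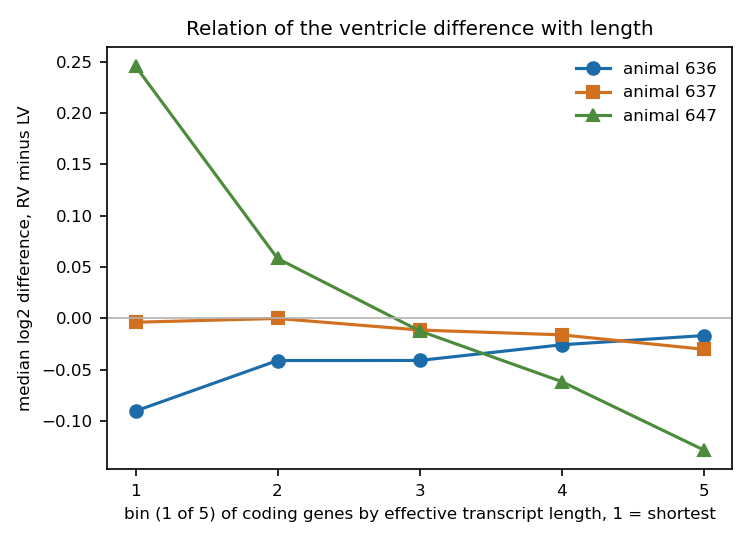
Median log2 difference of RV minus LV (vertical axis) in 5 equal bins of 8403 coding genes by effective transcript length (horizontal axis, shortest first), 1 line for each WT animal. The line of animal 647 runs from 0.25 down to -0.13, while those of 636 and 637 stay between -0.09 and 0.

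The 9 animals of the other groups, none of which entered the WT comparison, give the same measure in other hearts, though these carry a deleted Pkp2 gene with or without the vector. Differences in WT were scaled over the 6 libraries and those of the other 9 animals over 24, unless this is said. Of 980 genes of at least 5 CPM with an unadjusted p under 0.05 in WT, 71.1% had the same direction in cKO, 81.2% in 3E13 and 71.7% in 6E13, beside 57.1%, 62.3% and 58.3% of all 9277 genes. For the 646 lower genes these shares were 74.8%, 86.8% and 77.6%, and for the 334 higher genes 64.1%, 70.4% and 60.5%. In all 12 animals 228 genes were lower in RV and 112 higher, out of 1732 and 1409 that had 1 direction in the 3 WT animals.

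Bdh1, Myot, Jph2 and Kcnk3 were lower in RV in all 12 animals. The difference of Bdh1 ran from -0.98 to -0.63 in WT and from -0.87 to -0.07 in the other 9, and that of Myot from -0.69 to -0.62 and from -3.61 to -0.36. Kcna2, Ogn, Sfrp1, Vwf and Kcna1 were higher in RV in all 12. Kcna2 ran from 0.89 to 1.36 in WT and from 0.24 to 1.90 in the others. Kcnd2, Inmt and Wif1 were higher in 8 of the other 9, and Srf, Ankrd23 and Ntn1 lower in 8. Nppb was lower in 6 of the other 9 and Ankrd1 in 5, and Nppa, atrial natriuretic peptide, which had been at 51.5, 30.8 and 33.6 CPM in LV and 14.2, 25.1 and 19.2 CPM in RV of WT, was higher in 7.

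**Figure D4:**
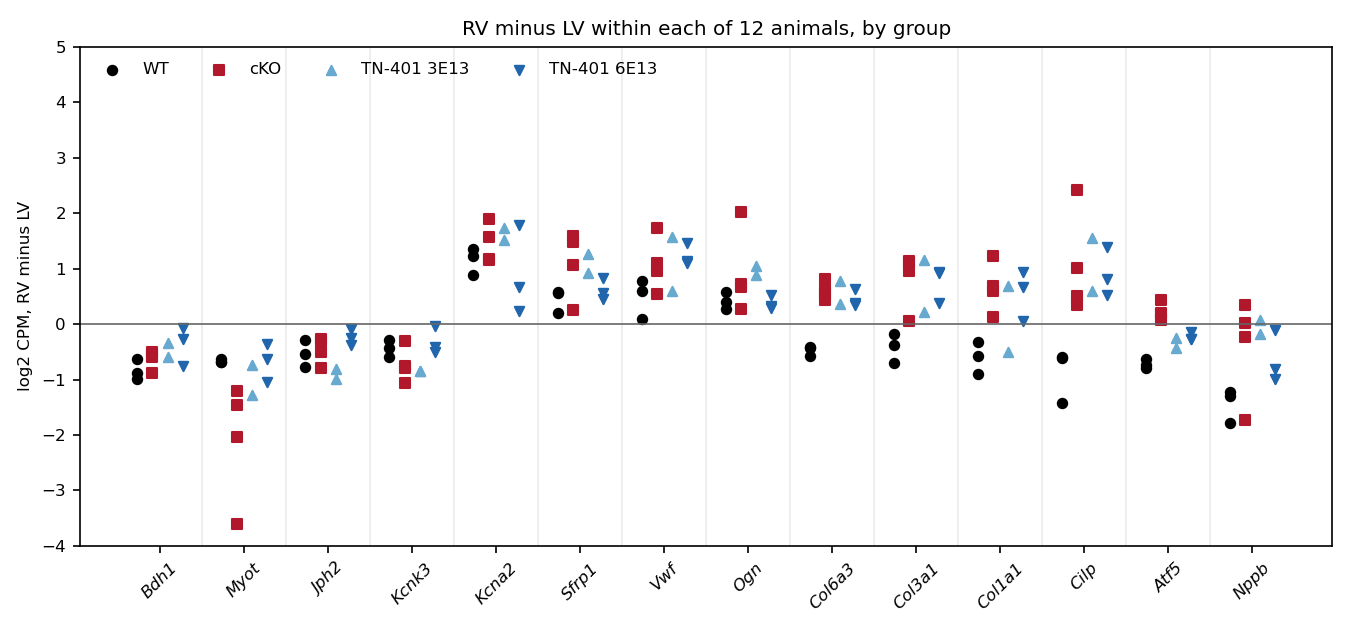
RV minus LV in log2 CPM (vertical axis) within each of 12 animals for 14 genes, with the 3 WT animals as circles, 4 cKO as squares and the 2 and 3 animals given TN-401 at 3E13 and 6E13 as triangles. Bdh1 to Kcnk3 lie below 0 and Kcna2 to Ogn above it in every animal, while Col6a3, Col3a1 and Cilp lie below 0 in WT and above it in the other 9.

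Matrix genes stood on the other side in the other animals. The list's median was -0.28, -0.13 and -0.30 in the 3 WT animals and 0.15 to 0.86 in the other 9. In the same 9 animals the median was above 0 for fibroblast markers (0.11 to 1.39), for endocardium and valves (0.10 to 1.06) and for epicardium and mesothelium (0.08 to 2.04), and their part in the matrix values was not tested. Of the 17 members lower in WT, 13 were higher in RV in at least 7 of the other 9 animals and 7 were higher in all 9, where the same held for 64 and 11 of the 769 lower genes of all kinds. With all 24 libraries on 1 scale, Col6a3 was at -0.45, -0.58 and -0.40 in WT and at 0.44, 0.81, 0.55 and 0.62 in cKO. The difference between cKO and WT passed the test, at a log2 of 1.08 (edgeR adjusted p = 0.0240). Atf5 was the only other gene that passed, out of 17981 tested, at 0.95 (edgeR adjusted p = 0.0240), with -0.76, -0.62 and -0.79 in WT on the same scale, 0.44, 0.21, 0.19 and 0.08 in cKO and -0.42 to -0.15 in the 5 treated animals. These 2 genes are 0.0111% of those tested, and 1874 (10.4%) had an unadjusted p under 0.05. Col3a1, a chain of collagen III, was at -0.38, -0.18 and -0.70 in WT and at 0.06 to 1.13 in cKO, a difference that did not pass (edgeR adjusted p = 0.202). Cilp, a matrix protein of the fibrotic heart, was at -0.61, -0.59 and -1.43 and at 0.35 to 2.41 (edgeR adjusted p = 0.222). Both calls were lost without the block for animal (edgeR adjusted p = 0.787 for Atf5 and 0.866 for Col6a3), on leaving out WT animal 636 (0.1001 for both), 637 (0.145 for both) or 647 (0.109 for both), and on leaving out cKO animal 180 (0.0946 for both) or 264 (0.0511 and 0.111). For 6E13 against WT 0 genes passed by edgeR or limma voom, with 811 (4.51%) and 782 at an unadjusted p under 0.05. The 2 tests share their WT libraries.

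The 3 energy lists with a median above 0 in WT had medians below 0 in each of the other groups. Fatty acid uptake and oxidation, at a median of 0.12 in WT, was at -0.36 in cKO, -0.31 in 3E13 and -0.14 in 6E13, and above 0 in 2 of the other 9 animals. Nuclear oxidative phosphorylation, at 0.13, was at -0.34, -0.04 and -0.16, and above 0 in 1 of the 9. The mitochondrial genome, at 0.14, was at -0.49, -0.05 and -0.13, and above 0 in 2 of the 9. Pln and Aqp1, both higher in RV in WT, were lower in RV in 8 of the other 9. For these lists the difference between groups was not tested.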

How the data were processed

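RNA of ventricle pieces was sequenced as paired reads. The protocol in the labels mentions both polyA RNA and a kit for ribosome-depleted total RNA. The authors quantified reads with Salmon 1.8.0 against GRCm39 transcripts, and the deposited tables hold expected counts per gene symbol, with no normalization, and TPM from the same run. A deposited table of other values gives the effective transcript length. Expected counts were rounded and fitted with edgeR 4.0.16 in R 4.3.3 (TMM scaling, filterByExpr, quasi-likelihood F test) with the animal as a block, with Benjamini-Hochberg adjustment and a threshold of 0.05. The fit had 2 residual degrees of freedom and 4.39 prior ones. The pairs come from the labels, since the libraries of a pair are from 1 animal, and deviations from the chamber means correlated at 0.15, 0.22 and 0.14 within animals 636, 637 and 647 across 9066 genes. Levels are counts per TMM-scaled library size (CPM). Differences in the other groups came from 1 fit of 24 libraries, with the interaction of group and ventricle tested over 17981 genes.

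Named genes are the 10 lower and 10 higher in RV with the smallest unadjusted p among genes of at least 5 CPM that had 1 direction in all 3 pairs, up to 6 members of each list by p, chamber and cell-type markers, and genes past the interaction test. The members and the 35 lists were chosen with earlier results of these data known. The 3 pairs were no copies of each other, the closest WT libraries differing 17.9 times as much as counting noise (chi-squared per degree of freedom). The test was tried on simulated data before use. Alternatives were other scalings (RLE, transcript length offsets, log2(TPM + 1) with limma 3.58.1), other filters, DESeq2 1.42.0, limma voom, other sets of libraries and each animal left out. Gene positions come from an annotation of GRCm39 and promoters from RefSeq on GRCm38.p6. Strand use in the counting is not given in the sources used here, so overlapping and antisense genes and near-identical copies are uncertain. Some genes that the rule names are not reported here.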

Additional observations from a re-analysis of the deposited data

Results flagged for a closer look

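The ventricle difference differed between cKO and WT for 2 genes, each by an edgeR test of the difference itself. For Atf5 it was 0.95 higher in cKO on the log2 scale (edgeR adjusted p = 0.0240), with RV above LV in 4 of 4 cKO animals and below it in 3 of 3 WT animals. For Col6a3 it was 1.08 higher (edgeR adjusted p = 0.0240), again with 4 of 4 and 3 of 3 animals on opposite sides.

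In the 5 LV libraries of WT, 1 library stood apart from the other 4 for 1 of 76 measures looked at, where chance alone sets apart about 5%. Atpaf2 was at 1.34 CPM in animal 248, against 12.9 to 16.4 CPM in the others.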

How the results depend on the processing

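The number of genes called between RV and LV, 0 by the paired edgeR fit, was 0 with RLE size factors, with transcript length offsets, with the length trend removed and over coding genes alone. It was 82 with no filter on low counts, 3 with no replicate block, 1 (Atf5) with the replicate block over 24 libraries, 6 over 8 WT libraries without the block, 144 by DESeq2, 4 by limma voom and 4 on log2(TPM + 1), and 5 to 50 on leaving out 1 of the 3 animals. The TPM scale moved the median of all genes to -0.08. For cKO against WT the 2 calls became 0 with no replicate block and 4 by limma voom, and 0 to 39 on leaving out 1 animal. For 6E13 against WT the count stayed at 0, with 0 to 3 on leaving out 1 animal. The mitochondrial share had an exact permutation p of 0.30 unpaired. DESeq2 called 40 of the 75 genes examined, the fit without the filter 24 and the fit without animal 647 15. Over all genes these fits called 144 of 15556, 82 of 23324 and 50 of 15544. The 75 genes were picked in large part by small p-values in these same libraries, which most alternatives reuse. Counts among them, and the stability of their direction, are therefore no independent test. Of these 75 genes under 14 alternatives, 1 value changed direction, Tbx20, whose fold change without 1 animal ran from -0.18 to 0.017 (the latter without 636). Of the 75 genes, 1 passed without the replicate block, Atpaf2 (edgeR adjusted p = 0.0213), and 2 passed over the 8 WT libraries without it. The count by leaving out an animal was 23 without 636, 5 without 637 and 50 without 647, and the cause of the differing counts was not tested.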
